A study of Caenorhabditis elegans with 8 samples.

Results

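Excised oligonucleotides that carry no adjacent thymines near their 3′ end were examined in XR-seq libraries of *C. elegans*. XR-seq sequences the short single strands released when nucleotide excision repair removes a lesion. An antibody to CPDs (cyclobutane pyrimidine dimers, the UV photoproduct that joins 2 neighbouring pyrimidines) was used to pull the strands down, and the dimer was reversed with CPD photolyase before amplification. The reads described here mapped to the 6 nuclear chromosomes with a quality above 20, and their reference sequence, on the read strand, held no TT with 3 to 9 nt between the pair and the 3′ end of the read. They numbered 1775545 of 36212718 kept reads over 8 libraries and are called TT-less reads below. The other 34437173 kept reads are called TT reads.

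The irradiated groups were *csb-1* L1 larvae (strain RB1801), mixed-stage *xpc-1* worms (TG2226) and WT L1 larvae (N2 ancestral), each sampled 1 h after UVB. WT L1 larvae that received no UV (WT no UV) served as the background of the assay. Each group had 2 replicates, and since no source states that replicates came from separate cultures, p-values measure only the spread between libraries. Each library was made from whole worms, and *xpc-1* differed from the other groups in stage as well as in genotype, so the effects of stage and genotype cannot be told apart.

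Nucleotide excision repair finds lesions by 2 routes. In global repair the XPC protein recognises damage anywhere in the genome, and *xpc-1* worms lack it. In transcription-coupled repair (TCR) the lesion is sensed by an RNA polymerase stalled on the template strand (TS), with the CSB protein, and *csb-1* worms lack it. The incisions leave the dimer a few nt from the 3′ end of the excised strand, so the bases at that place are used to read which dipyrimidine was damaged. CPDs form most readily at TT, less at TC and CT and least at CC. In all 8 libraries TT was most frequent at 6 nt from the 3′ end, where it stood in 44.5% to 52.4% of the kept reads of the irradiated libraries and in 25.9% and 20.1% of those of WT no UV.

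The pair was read from the reference genome (ce11), since the deposited positions carry no base calls. The rule leaves room for TT elsewhere in the read. A TT outside the window of 3 to 9 nt was present in most TT-less reads, and those with no TT anywhere made up 15.6% and 13.6% of them in *csb-1*, 23.8% and 23.7% in mixed-stage *xpc-1*, 25.9% and 33.1% in WT, and 41.4% and 42.1% in WT no UV. Just inside the rule, reads with TT at 2 nt made up 1.36% and 1.11% of kept reads in *csb-1* and 1.20% and 0.524% in WT, and reads with TT at 10 nt 0.614% and 0.923% in *csb-1*, against 0.787% and 0.801% in WT. Of the TT-less reads themselves, TT at 2 nt stood in 41.2% and 26.6% in *csb-1* and in 24.9% and 10.6% in WT. It stood in 11.0% and 14.6% in mixed-stage *xpc-1*, 6.16% and 5.80% in WT no UV, and 8.78% of TT-less genome windows. Just outside the rule, reads whose only TT of the window lay at 3 nt made up 0.863% and 0.925% of kept reads in *csb-1*, against 0.916% and 0.681% in WT. Those whose only one lay at 9 nt made up 1.28% and 1.63% in *csb-1*, against 1.60% and 1.59% in WT.

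Some libraries stood apart. WT replicate 2 was the only one whose copy numbers, the number in each deposited line's name, taken here as the count of identical reads merged into it, were all even. In it 39.9% of the TT-less reads had the highest mapping quality of 42, against 69.1% to 85.3% in the other libraries, whereas its TT reads reached 81.2%. WT no UV gave only 10260 and 12916 kept reads, and mixed-stage *xpc-1* replicate 2 gave 143716, against 3252700 to 13203914 in the other libraries. Of the TT-less reads of WT no UV, 6.14% and 6.54% lay at a position and strand also read in any irradiated library, against 33.9% and 30.9% of its TT reads. A TT-less read can match only TT-less reads, which numbered 1775545 over 8 libraries, against 34437173 TT reads. The overlaps of the 2 classes thus cannot be compared directly. The comparisons of shares with WT, and of irradiated with unirradiated libraries, are given with and without WT replicate 2.

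The following 24 nt reads show the classes compared below. Each lies in a protein-coding gene and is given on the read strand of ce11, with the pair at 6 nt from the 3′ end in capitals. These positions were seen in the most irradiated libraries for their pair, and capitals are absent from the last pair of reads, which hold no pyrimidine pair at 3 to 9 nt.
unc-32, TC: gccgggagtcacgtaaTCacccat
R11H6.2, TC: gccgtttacgtattcaTCaactac
ret-1, CT: gttttgagacctccaaCTgccaca
madf-9, CT: gaaacatggctccgaaCTgcctca
icd-1, CC: ggttaaaaacattcagCCaatgag
arrd-16, CC: atatcccttattaaaaCCaaatct
ZC196.2, none: ggatatcaagattaacacaattta
C09H10.5, none: gctgatttggcattggagcgtcta

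The *unc-32* read (chrIII:8905628-8905651, minus strand) lay on the TS in an exon of this vacuolar ATPase subunit gene. It had 22 copies and 1 copy in mixed-stage *xpc-1*, 1 and 102 in WT, and 0 in the other 4 libraries. The *ret-1* read (chrV:14831102-14831125, plus strand) lay on the TS in an intron of the reticulon gene. It had 1 copy in each *csb-1* library, 3 in mixed-stage *xpc-1* replicate 1, and 5 and 86 in WT. The *madf-9* read (chrIV:3638670-3638693, minus strand), also on the TS in an intron, had 1 and 18 copies in *csb-1*, 10 in mixed-stage *xpc-1* replicate 1, and 3 and 18 in WT. Recurrence of this kind was rare. It was counted for 24 nt reads outside chromosome I, in protein-coding genes on 1 strand only. For CT and TC the pair had to lie at 6 nt, with no pyrimidine pair at the offset on either side. These sets are narrower than the classes of CT alone and TC alone used below. Of the 7110 such positions with CT, 6667 were seen in 1 irradiated library only and 2 in 5 of the 6. For TC, 7791 of 8089 such positions were seen in 1 library and 3 in 4.

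The CC reads recurred least. The *icd-1* read (chrII:6588219-6588242, plus strand), on the TS in an intron, had 1 copy in *csb-1* replicate 2, and 1 and 16 in WT. The *arrd-16* read (chrIII:12487633-12487656, minus strand) had 3 copies in *csb-1* replicate 2 and 34 in WT replicate 2. The R11H6.2 read (chrV:14598849-14598872, plus strand) lay on the non-template strand (NTS) in an exon, with 1 copy in each *csb-1* library, and 1 and 14 in WT. Of the reads with no pyrimidine pair, that in ZC196.2 (chrV:8741775-8741798, plus strand, NTS, exon) had 5 copies in *csb-1* replicate 2, 1 in mixed-stage *xpc-1* replicate 1, and 1 and 26 in WT. That in C09H10.5 (chrII:11103215-11103238, plus strand, TS, intron) had 2 and 5 copies in *csb-1*, 2 in mixed-stage *xpc-1* replicate 1, and 16 in WT replicate 2. WT replicate 2 had the most copies, or as many as any other library, at each of the 8 positions, and its copy numbers are all even.

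The first question was how large the TT-less share of each library was. TT-less reads made up 3.31% and 4.19% of kept reads in *csb-1*, 8.80% and 10.7% in mixed-stage *xpc-1*, 4.84% and 4.94% in WT, and 40.4% (95% interval 39.4% to 41.3%, exact Clopper-Pearson) and 47.2% (46.4% to 48.1%) in WT no UV. Such intervals cover counting error only, as PCR copies are not independent molecules. By the same rule 49.3% of 22 nt windows of the genome were TT-less. By this rule the share was thus lowest in *csb-1* and highest in WT no UV, with no overlap between any pair of groups. The irradiated libraries had 0.0672 to 0.218 times the share of the genome windows, and WT no UV had 0.819 and 0.958 times.

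The share averaged 3.75% ± 0.621 in *csb-1* and 4.89% ± 0.0721 in WT (SD, n = 2 each), a difference of -1.14 percentage points (exact two-sided permutation test, p = 0.3333, the smallest p that 2 libraries against 2 can give). In mixed-stage *xpc-1* it averaged 9.77% ± 1.37, which was 4.87 points above WT (exact permutation p = 0.3333) and 4.93 points above WT replicate 1 alone. WT was 38.9 points below WT no UV, at 43.8% ± 4.86 (exact permutation p = 0.3333), and WT replicate 1 alone gave a difference of -38.95 points. Over the 6 irradiated libraries the mean was 6.14%, and the difference from WT no UV was -37.7 points (exact permutation test, p = 0.07143, the smallest that 6 libraries against 2 can give), or -37.4 points without WT replicate 2. Among reads of mapping quality 42 alone, the *csb-1* libraries had 2.94% and 3.37% and the WT libraries 4.26% and 2.49%, so these groups overlapped and the difference shrank to -0.219 points. Without WT replicate 2, *csb-1* minus WT was -1.09 points at a quality above 20.

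Reads of lower mapping quality were more often TT-less in the irradiated libraries. At a quality of 21 to 41 the share was 6.84% and 9.14% in *csb-1*, 16.2% and 16.97% in mixed-stage *xpc-1*, and 10.2% and 14.3% in WT. All 6 values exceeded those at quality 42 in the same library. In WT no UV the order was the other way, with 38.3% and 41.8% at quality 21 to 41 and 40.8% and 48.3% at quality 42. The part of mapping quality in the TT-less share was not tested beyond these values.

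The second question was which other pyrimidine pair stood where TT was missing. TC stood at 5 to 7 nt in 24.7% and 22.1% of TT-less reads in *csb-1*, 44.0% and 43.4% in mixed-stage *xpc-1*, 46.2% and 28.5% in WT, and 66.8% and 75.4% in WT no UV, against 15.6% of TT-less genome windows. It was therefore above the genome level in all 8 libraries, by 1.42 to 2.96 times in the irradiated ones and by 4.29 and 4.84 times in WT no UV. CT stood there in 27.3% and 24.01% in *csb-1*, 25.7% and 25.9% in mixed-stage *xpc-1*, 33.6% and 48.8% in WT, and 30.0% and 32.6% in WT no UV, against 13.9% of windows. CC, the pair least prone to dimers, lay on both sides of the 11.5% of windows, at 11.8% and 11.8% in *csb-1*, 11.0% and 13.1% in mixed-stage *xpc-1*, 11.4% and 8.12% in WT, and 13.6% and 12.7% in WT no UV.

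The 2 WT replicates disagreed on the leading pair. TC led in replicate 1, whereas CT led in replicate 2 and was the only pair in 35.1% of its TT-less reads, against 12.7% in replicate 1. At mapping quality 42, TC stood at 5 to 7 nt in 12.6% of the TT-less reads of WT replicate 2, below the genome windows, and in 48.3% of those of replicate 1. In the reads of quality 21 to 41 of WT replicate 2 it stood in 39.0%, and CT in 53.8%. The WT mean for TC, 37.3% ± 12.5 (SD, n = 2), thus covers libraries that differ by more than WT replicate 2 differs from *csb-1*.

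A remainder had none of these pairs at 5 to 7 nt. It made up 51.0% and 55.5% of TT-less reads in *csb-1*, 40.6% and 41.01% in mixed-stage *xpc-1*, 35.1% and 30.8% in WT, and 25.6% and 17.4% in WT no UV, against 68.0% of windows. Reads with no pyrimidine pair at all at 3 to 9 nt made up 29.4% and 30.7% in *csb-1*, 21.9% and 19.6% in mixed-stage *xpc-1*, 18.3% and 14.1% in WT, and 11.0% and 5.70% in WT no UV, against 42.2% of windows. *csb-1* was highest of the groups in both, with no overlap, and remained below the windows. The *csb-1* libraries also had the largest shares of TT-less reads with TT at 2 nt. The part of such reads in this remainder was not tested.

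Compared over all irradiated libraries, TC at 5 to 7 nt averaged 34.8% in the 6 irradiated libraries and 71.1% in WT no UV, a difference of -36.3 points (exact permutation p = 0.07143, adjusted p = 0.2143 over the 3 pairs). CT averaged 30.9% and 31.3%, a difference of -0.39 points (exact permutation p = 0.7143, adjusted p = 0.7143), and its sign turned under several alternatives. CC averaged 11.2% and 13.1%, a difference of -1.92 points (exact permutation p = 0.1429, adjusted p = 0.2143). Without WT replicate 2 the differences were -35.04 points for TC, -3.96 points for CT and -1.30 points for CC. TC was lower in all 6 irradiated libraries than in both unirradiated ones, whereas the ranges of CT and of CC overlapped. Among reads of more than 1 copy the TC difference shrank to -14.6 points (exact permutation p = 0.357), and WT no UV replicate 1, at 19.7%, lay within the range of the irradiated libraries.

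The offset of the pair was compared next. TC was most frequent at 6 nt of the offsets from 3 to 9 nt in *csb-1* replicate 1, both mixed-stage *xpc-1* libraries, WT replicate 1 and both WT no UV libraries. In those it reached 9.66%, 16.9% and 17.6%, 19.6%, and 29.0% and 32.4% of TT-less reads. In *csb-1* replicate 2 it was highest at 9 nt (10.5%), with 8.07% at 6 nt, and in WT replicate 2 at 5 nt (12.6%), with 8.88% at 6 nt. In *csb-1* replicate 1 TC was nearly as frequent at 9 nt (9.20%), and in mixed-stage *xpc-1* replicate 1 at 5 nt (15.8%). TT-less genome windows held TC in 5.29% at 6 nt but in 7.91% at 9 nt, since the rule bars TT only up to 9 nt. Relative to the windows at the same offset, TC was highest at 6 nt in every library, *csb-1* replicate 2 included, except WT replicate 2, where it was highest at 5 nt. As a share of TT-less reads, CT peaked at 6 nt in mixed-stage *xpc-1* (10.8% and 10.4%) and in WT replicate 2 (23.8%), at 7 nt in WT replicate 1 (14.2%), at 8 nt in WT no UV (16.2% and 17.7%) and at 3 nt in *csb-1* (13.1% and 10.6%). The windows held CT in 6.05% at 3 nt and 4.71% at 6 nt, and CT at 3 nt may run on into TT at 2 nt, which the rule allows. Relative to the windows, CT was highest at 6 nt in *csb-1* replicate 1, both mixed-stage *xpc-1* libraries and WT replicate 2, and at 7 nt in *csb-1* replicate 2, WT replicate 1 and both WT no UV libraries. CC was highest at 3 or 4 nt in every library by either measure.

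A pair and its reverse complement give a within-library measure, since only the pyrimidine pair can form a dimer on the read strand. At 6 nt, TC was 1.64 and 1.29 times as frequent as GA in *csb-1*, 3.54 and 3.59 times in mixed-stage *xpc-1*, 4.69 and 2.08 times in WT, and 9.11 and 14.2 times in WT no UV. In the TT-less windows of the genome the ratio was 0.635, because leaving out TT on the read strand leaves out TC next to a T but not GA. The mean log2 ratio over the 6 irradiated libraries was 1.34 (above 0 in 6 of 6, exact two-sided sign-flip permutation test, p = 0.03125, the smallest that 6 libraries can give, adjusted p = 0.03125 over 3 pairs). At mapping quality 42, WT replicate 2 had a ratio of 0.682, and the mean fell to 1.04 with an exact permutation p of 0.09375. Without WT replicate 2 it was 1.40 (exact permutation p = 0.0625, the smallest that 5 libraries can give).

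CT over AG was 2.08 and 1.49 in *csb-1*, 2.58 and 2.34 in mixed-stage *xpc-1*, 3.58 and 7.20 in WT, and 4.34 and 6.16 in WT no UV, with a genome ratio of 0.665. CC over GG was 1.65 and 1.58 in *csb-1*, 1.81 and 1.99 in mixed-stage *xpc-1*, 2.14 and 1.48 in WT, and 6.14 and 7.73 in WT no UV, with a genome ratio of 0.960. Both mean log2 ratios were above 0 in 6 of 6 irradiated libraries, at 1.49 and 0.82 (exact sign-flip permutation test, p = 0.03125 and adjusted p = 0.03125 each). For CC this was no excess over the windows. In the irradiated libraries CC at 6 nt had 0.693 to 1.14 times its share of the TT-less windows, whereas GG had 0.444 to 0.653 times. The CC over GG ratio was thus high with GG scarce and CC on both sides of its window share. When TT was barred only at 5 to 7 nt, the mean for TC over GA was -0.58 and that for CT over AG -0.10, with TT then allowed at the neighbouring offsets.

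The bases around TC were uneven. The base 3′ of TC at 6 nt was A in 50.4% and 44.6% of cases in *csb-1*, 51.4% and 51.5% in mixed-stage *xpc-1*, 57.6% and 37.5% in WT, and 63.6% and 65.5% in WT no UV, against 35.5% in windows. The base 5′ of TC was G in 11.6% and 13.0% in *csb-1*, 5.36% and 5.85% in mixed-stage *xpc-1*, 3.92% and 10.9% in WT, and 2.33% and 0.961% in WT no UV, against 23.8% in windows. A 5′ G was thus scarcer than in the windows in all libraries and scarcest in WT no UV. These are descriptions of the reads chosen by their pair, and no test was made.

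The third question was on which strand of genes the TT-less reads lay. In positions covered by protein-coding genes on 1 strand only, 49.97% and 49.98% of TT-less reads were on the TS in *csb-1*, 79.6% and 74.3% in mixed-stage *xpc-1*, 54.1% and 59.5% in WT, and 49.1% and 48.8% in WT no UV, against 49.7% of TT-less windows. The TS share was thus near the genome level in *csb-1* and WT no UV and above it in mixed-stage *xpc-1* and WT. It averaged 49.98% ± 0.0105 in *csb-1* and 56.8% ± 3.87 in WT, a difference of -6.82 points (exact permutation p = 0.3333). Without WT replicate 2 the difference was -4.08 points, and at mapping quality 42 it was -3.70 points. Mixed-stage *xpc-1*, at 77.0% ± 3.80, was 20.2 points above WT (exact permutation p = 0.3333) and 22.9 points above WT replicate 1 alone.

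TT reads of the same libraries had TS shares of 49.2% and 49.4% in *csb-1*, 87.0% and 86.8% in mixed-stage *xpc-1*, 55.4% and 56.4% in WT, and 50.9% and 51.9% in WT no UV. TT-less reads minus TT reads gave 0.72 and 0.57 points in *csb-1*, -7.37 and -12.5 points in mixed-stage *xpc-1*, -1.30 and 3.09 points in WT, and -1.82 and -3.06 points in WT no UV. Over the 6 irradiated libraries the mean difference was -2.80 points (exact sign-flip permutation test, p = 0.375, above 0 in 3 of 6), or -3.98 points without WT replicate 2. TT-less reads had the lower TS share in both replicates of mixed-stage *xpc-1* and of WT no UV, and by more in mixed-stage *xpc-1*. In WT no UV the 95% intervals of the 2 classes overlapped in both replicates. They were 47.2% to 51.0% for TT-less and 49.3% to 52.6% for TT reads in replicate 1. In replicate 2 they were 47.26% to 50.36% and 50.33% to 53.4%. TT-less and TT genome windows had 49.7% and 50.3%. In mixed-stage *xpc-1* the TS shares of TT-less and TT reads did not overlap.

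Within mixed-stage *xpc-1* the TS share differed between the pair classes. Reads with TC as the only pair at 5 to 7 nt were on the TS in 87.9% (75388 TS and 10421 NTS reads) and 79.7% (2110 and 539). CT alone gave 83.4% and 78.6%, CC alone 71.8% and 69.8%, and reads with none of the pairs 69.7% and 68.2%. In TT reads it was 87.0% and 86.8%, so the TC reads of replicate 1 lay slightly above the TT reads and every other class named, and the TC reads of replicate 2, lay below. The order TC, CT, CC and none was the same in both replicates, but not all its steps exceeded counting error in replicate 2. There the 95% intervals of TC (78.1% to 81.2%) and CT (75.8% to 81.2%) overlapped. So did those of CC (66.2% to 73.3%) and none (66.7% to 69.6%). In *csb-1* the same classes ranged from 47.1% to 51.6% and showed no such order.

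In WT the replicates disagreed again. Reads with TC alone were on the TS in 51.6% in WT replicate 1 and in 71.8% in WT replicate 2, while CT alone gave 53.6% and 54.0%. In WT replicate 2 the high value lay in the reads of mapping quality 21 to 41, at 74.7% (11040 TS and 3735 NTS reads), against 53.6% at quality 42 (1288 and 1115). In WT replicate 1 they were 61.9% and 49.6%. Reads with none of the pairs gave 58.5% and 59.3% in WT, so for these the replicates lay close together and above the 49.95% of the windows.

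Gene groups expected to be transcribed at very different rates were set side by side. Cytosolic ribosomal protein genes (*rpl* and *rps*, 76 genes), which are highly transcribed in growing worms, had 152 TS and 83 NTS TT-less reads and 252 and 193 in *csb-1*. They had 2399 and 95 reads, and 62 and 2, in mixed-stage *xpc-1*, and 585 and 221, and 279 and 62, in WT. The TS share was 64.7% and 56.6% in *csb-1*, 96.2% and 96.9% in mixed-stage *xpc-1*, and 72.6% and 81.8% in WT. The groups did not overlap, and *csb-1* lay above its 49.94% and 49.95% over all protein-coding genes. The TS share of genome windows within these 76 genes alone was not computed. TT reads of these genes were on the TS in 64.9% and 58.8% in *csb-1*, 94.8% and 97.5% in mixed-stage *xpc-1*, and 83.3% and 85.1% in WT, so TT-less reads had the lower TS share in both WT libraries. In WT no UV the same genes had 0 TS reads and 3 and 7 NTS reads.

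Among single ribosomal protein genes, *rpl-3* of the large subunit had the most TT-less reads in mixed-stage *xpc-1* replicate 1, with 92 TS and 4 NTS reads. It had 8 and 3, and 6 and 3, in *csb-1*, and 19 and 13, and 9 and 2, in WT. *rps-17* of the small subunit had 71 TS and 0 NTS reads in mixed-stage *xpc-1* replicate 1, with 3 and 0, and 4 and 2, in *csb-1*, and 17 and 3, and 4 and 1, in WT. *rpl-4* had 68 and 1 in mixed-stage *xpc-1* replicate 1 and *rps-13* had 63 and 1. NTS reads were thus near 0 in mixed-stage *xpc-1* for these 4 genes, which were chosen after their values were seen.

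The *str* chemoreceptor genes (187 genes), which are expressed in few neurons, showed no such skew towards the TS. Their TT-less reads were on the TS in 48.9% and 49.4% in *csb-1*, 51.2% (311 TS and 297 NTS reads) and 22.7% (5 and 17) in mixed-stage *xpc-1*, and 47.7% and 49.5% in WT. Their reads were more often TT-less in mixed-stage *xpc-1*, with 608 TT-less and 2592 TT reads in replicate 1 and 22 and 95 (18.8% TT-less) in replicate 2, against TT-less shares of 8.61% and 10.3% over all protein-coding genes. In *csb-1* they were TT-less in 2.99% and 4.17%, against 3.36% and 4.32% over all protein-coding genes, and in WT in 4.59% and 4.31%, against 5.00% and 5.27%. Ribosomal protein genes were TT-less in 4.99% and 5.54% in *csb-1*, 14.7% and 8.04% in mixed-stage *xpc-1*, and 7.51% and 7.82% in WT, so the mixed-stage replicates lay on opposite sides of their all-gene share.

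TS and NTS counts of TT-less reads were also compared per gene. The log2 ratio of TS to NTS reads (0.5 added to each) was tested between *csb-1* and WT with limma for the 2404 genes that averaged 20 or more TT-less reads over the 4 libraries. With limma and Benjamini-Hochberg adjustment, 0 genes (0% of those tested) were lower in *csb-1* and 0 (0%) were higher at an adjusted p under 0.05. The smallest adjusted p was 0.3845. On simulated counts of the same genes, this fit recovered 0 of 200 genes lowered by 1 log2 unit. It recovered 123 of 200 lowered by 2 units, with 6 false calls, and 189 of 200 lowered by 3, with 3 false calls. The simulated counts held binomial noise only, with no further spread between replicates. Recovery at the spread of the real libraries was thus not measured. A count of 0 therefore says little about differences of 1 log2 unit or less, and larger ones could also have been missed. At an unadjusted p under 0.05, 238 genes were lower and 16 higher, and the median difference over all genes tested was -0.38. The difference was below 0 in 1730 genes and above 0 in 674, and in 818 and 175 of them all 4 pairs of *csb-1* and WT libraries went that way. Without WT replicate 2 the median was -0.22, with 116 genes lower and 19 higher at an unadjusted p under 0.05.

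No gene passed the threshold, so values of single genes are descriptions. *vbh-1* (WBGene00006888), a DEAD-box RNA helicase gene on chromosome I (3158492 to 3162391, minus strand), had 12 TS and 4 NTS, and 25 and 13, TT-less reads in *csb-1*. It had 107 and 2, and 5 and 0, in mixed-stage *xpc-1*, and 32 and 6, and 24 and 3, in WT. Its difference was -1.37 ± 0.60 (SE, limma adjusted p = 0.4498), with TS reads above NTS reads in all 6 irradiated libraries. Its neighbour *mrpl-17*, a mitochondrial ribosomal protein gene, had a mean of 2.75 TT-less reads over the *csb-1* and WT libraries and fell below the filter, as did the mutated genes. *csb-1* had 0 TS and 4 NTS, and 6 and 12, reads in the *csb-1* libraries, and 4 and 6, and 9 and 4, in WT. *xpc-1* had 1 and 8, and 11 and 23, in the *csb-1* libraries, and 8 and 8, and 1 and 4, in WT.

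The genes *epc-1*, *unc-32* and *unc-70* were chosen after their values were seen, from those averaging 50 or more TT-less reads. They were among those with the lowest unadjusted limma p for the *csb-1* minus WT difference. *lin-66*, *kin-2* and F57A8.1 ranked there too and are not described. *epc-1*, an enhancer of Polycomb homologue, had 8 TS and 11 NTS, and 40 and 19, reads in *csb-1*, and 63 and 14, and 50 and 3, in WT. Its difference was -2.68 ± 0.63 (SE, limma adjusted p = 0.3845), the lowest unadjusted p in that set. *unc-32*, which holds the TC read shown above, had 10 and 11, and 42 and 25, in *csb-1*, and 59 and 18, and 60 and 3, in WT, with 152 and 6 in mixed-stage *xpc-1* replicate 1. *unc-70*, which encodes beta-spectrin, had 11 and 22, and 20 and 45, in *csb-1*, and 35 and 29, and 33 and 9, in WT. In each, both *csb-1* libraries had a lower ratio than both WT libraries. As the genes were picked by this same difference, that separation is no further evidence of it. A gene on the other strand overlaps *unc-32* and *unc-70*, and there reads of either gene cannot be told apart.

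The fourth question was the length of the TT-less reads. Only reads of 19 to 24 nt were deposited, so differences in mean length are bounded by that range. TT-less reads averaged 21.1 and 21.4 nt in *csb-1*, 21.4 and 21.1 nt in mixed-stage *xpc-1*, 21.4 and 21.6 nt in WT, and 21.4 and 21.5 nt in WT no UV. TT-less minus TT reads gave -0.385 and -0.0659 nt in *csb-1*, 0.00680 and 0.124 nt in mixed-stage *xpc-1*, -0.231 and -0.154 nt in WT, and 0.151 and 0.300 nt in WT no UV. The mean over the 6 irradiated libraries was -0.117 nt (exact sign-flip permutation test, p = 0.1875, above 0 in 2 of 6), or -0.110 nt without WT replicate 2.

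The TT-less share by length differed between libraries. In *csb-1* replicate 1 it was 4.24% of 19 nt reads and 2.21% of 24 nt reads. In *csb-1* replicate 2 it varied less, with 4.22% at 19 nt, 4.42% at 21 nt and 3.80% at 24 nt. In mixed-stage *xpc-1* it was 8.31% of 19 nt and 8.68% of 24 nt reads in replicate 1, with a peak of 9.28% at 21 nt. In replicate 2 it was 9.44% of 19 nt and 12.2% of 24 nt reads. In WT it was 5.76% and 3.97% in replicate 1 and 5.66% and 4.45% in replicate 2. In WT no UV it was 38.5% and 44.4% in replicate 1 and 40.6% and 53.9% in replicate 2. Of these 2 lengths, 24 nt reads thus had the lower share in *csb-1* and WT and the higher one in mixed-stage *xpc-1* and WT no UV. In mixed-stage *xpc-1* replicate 1 the share did not rise steadily with length. Reads with TC alone averaged 21.26 and 21.38 nt in *csb-1*, 21.58 and 21.50 nt in mixed-stage *xpc-1*, 21.59 and 21.56 nt in WT, and 21.61 and 21.72 nt in WT no UV. Reads with none of the pairs averaged 20.97 and 21.34 nt in *csb-1*, 21.16 and 20.79 nt in mixed-stage *xpc-1*, 21.14 and 21.41 nt in WT, and 21.11 and 21.22 nt in WT no UV. The TC reads were thus the longer ones in all 8 libraries.

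TT-less reads lay more often in exons than TT reads in all libraries but mixed-stage *xpc-1* replicate 2, and genome windows differed in the same direction. Exons of protein-coding genes took 33.5% and 33.8% of TT-less reads in *csb-1*, 49.7% and 46.0% in mixed-stage *xpc-1*, 36.0% and 39.8% in WT, and 45.1% and 44.9% in WT no UV. TT-less windows of the genome had 33.5% and TT windows 25.6%. Relative to these, the mean exon share of TT-less reads was 1.00 times in *csb-1*, 1.43 in mixed-stage *xpc-1* and 1.13 in WT. That of TT reads was higher in these groups, at 1.14, 1.76 and 1.19 times. In WT no UV the values were 1.34 for TT-less and 1.30 for TT reads. The excess of TT-less over TT reads was 4.01 and 4.86 points in *csb-1*, 5.91 and -0.340 points in mixed-stage *xpc-1*, 6.20 and 8.77 points in WT, and 11.5 and 11.7 points in WT no UV. GC content was higher in TT-less than in TT reads in all 8 libraries, by 3.34 to 8.06 points. The rule itself favours this, since it bars TT from part of the read. GC content was not computed for genome windows, so no excess beyond the rule can be stated.

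Among chromosomes, the X stood out in mixed-stage *xpc-1*. TT-less reads made up 11.6% and 12.6% of its kept reads there, against 7.90% to 9.57% on the autosomes in replicate 1 and 9.68% to 11.2% in replicate 2. In *csb-1* and WT the X lay within the range of the autosomes in all 4 libraries, and in the genome windows it held 49.6%, within the 48.3% to 50.1% of the autosomes. No test was made of this difference.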

How the data were processed

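Per the labels and the study's methods, the authors trimmed adapters with cutadapt, used Bowtie 2 for alignment to ce11, and deposited 1 line per read with its position, strand and mapping quality score. That a line stands for merged identical reads, with their number in its name, was inferred from the files. Tool versions are not given in the sources used here. The mapping quality score runs up to 42 in these deposited files. STAR, featureCounts and bedtools are also named, and only the read positions were used. Each line was counted as 1 read. Lines of quality above 20 on nuclear chromosomes were kept, 10260 to 13203914 per library, and the pair was read from ce11. Genome windows of 22 nt every 4 nt on both strands gave the background. Reads were placed by their midpoint in Ensembl genes, and the TS is the strand opposite the annotated gene strand.

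Shares were computed per library and compared by exact permutation tests (two-sided), with the library as the replicate, and p-values adjusted by Benjamini-Hochberg over the 3 pairs. Per-gene log2 ratios (0.5 added to each count) were tested with limma 3.58.1 in R 4.3.3, tested beforehand on simulated data with binomial noise only. Python 3.11.15, numpy 2.4.6, pandas 2.3.3 and scipy 1.17.1 were used. Intervals are exact Clopper-Pearson at 95% and cover counting error only, since reads carry no molecular identifiers. Named genes were *vbh-1*, *mrpl-17*, *csb-1* and *xpc-1*, with the largest differences among genes past the threshold (0 genes). The *rpl*, *rps* and *str* groups were taken by symbol. Members and lists were chosen with earlier results of these data known. Alternatives covered the mapping quality, copy number, TT window, read length, filter, pseudocount, replicate block and leaving out each library. Those at quality 42, with more than 1 copy (copy numbers of WT replicate 2 halved) and relative to genome windows were chosen after seeing the data.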

Additional observations from a re-analysis of the deposited data

Results flagged for a closer look

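In some pairs of groups every library of one moved the opposite way from every library of the other. These differences were not tested. The TS share of TT-less minus TT reads averaged 0.645 points in *csb-1* and -9.96 points in mixed-stage *xpc-1*, 10.6 points apart. The *csb-1* value was 3.08 points above that of WT no UV, which was -2.44 points and rests on classes whose counting intervals overlapped. The mean length of TT-less minus TT reads averaged -0.225 nt in *csb-1* and 0.0654 nt in mixed-stage *xpc-1*, a difference of -0.291 nt. Against WT no UV, at 0.225 nt, the *csb-1* difference was -0.450 nt. Mixed-stage *xpc-1* was 0.258 nt above WT, which averaged -0.192 nt, and WT minus WT no UV was -0.418 nt.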

How the results depend on the processing

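Comparisons of 2 libraries with 2, or 6 with 2, could not reach 0.05 under any setting, so only their directions and sizes bear on stability. Of 234 alternatives, 12 turned a direction. The CT difference between irradiated and unirradiated libraries (-0.39 points) turned to 0.420 with any mapping quality, 0.900 weighted by copies, 15.6 with no TT anywhere in the read, 7.55 in 24 nt reads and 5.94 above 1 copy, and ranged from -3.96 to 0.989 with single libraries left out. With TT barred at 5 to 7 nt only, mean log2 TC over GA was -0.58 (exact permutation p = 0.1875), CT over AG -0.10 (p = 0.8125), CC over GG 0.041 (p = 0.75) and the length difference -0.0709 nt (p = 0.03125). TC over GA was 1.04 at quality 42 and 0.59 above 1 copy (exact permutation p = 0.09375 each), where the length difference was -0.232 nt (p = 0.03125). With single libraries left out, TC over GA ranged from 1.16 to 1.53, CT over AG from 1.21 to 1.67 and CC over GG from 0.76 to 0.87. No call was possible there, as 5 libraries give no p below 0.0625. The cause of these changes was not tested.

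Lower genes in *csb-1* numbered 12 of 11529 with TT barred at 5 to 7 nt, 7 of 480 averaging 50 or more reads, and 2 with the replicate block, against 0. Same-numbered replicates were not paired by the labels, and their deviations correlated at -0.0298. The *csb-1* minus WT share was -0.732 points with TT barred at 5 to 7 nt, -0.443 weighted by copies and -0.704 without *csb-1* replicate 1. Mixed-stage *xpc-1* minus WT was 7.37 points with TT barred at 5 to 7 nt, 3.05 above 1 copy and 0.875 with no TT anywhere, and the irradiated minus unirradiated share was then -16.8 points. Few WT no UV reads and 2 libraries per group limit every comparison.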
